A study of Bos taurus with 6 samples.

Results

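The SLC25 genes encode the mitochondrial carrier family. All rows of the raw count files whose symbol starts with SLC25A and a digit were taken, which gave 45 of the 23015 rows, with 44 different symbols. SLC25A37 had 2 rows, called here its first and its second row. The uncoupling proteins UCP1, UCP2 and UCP3 (also SLC25A7, SLC25A8 and SLC25A9) are mitochondrial carriers too, but the files list them under their UCP symbols. They are outside this selection, and the family, its ranks and the SLC25 counts below refer to the 45 rows alone. Of the 45 rows, 40 passed the filter on low counts and were compared between groups, among 15039 tested rows in all.

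The counts came from longissimus thoracis (LT) muscle, the loin muscle that is graded for marbling, of 6 steers of the Hanwoo breed (Korean native cattle), with 1 library of 3′ mRNA tags for each steer. The high-NFMP group held 3 steers with many fine marbling particles (steers 3-8, 10-8 and 10-9, aged 32.5, 33.8 and 34.5 months), where NFMP is the number of fine marbling particles and a marbling particle is a fleck of fat within the muscle. The low-NFMP group held 3 steers with few of them (steers 3-1, 3-3 and 10-16, aged 37.8, 33.7 and 35.4 months). All were steers (castrated males) on commercial feed with no experimental treatment, the groups were chosen on particle number and were not matched for age or marbling score, and the labels do not say what the first number of a steer marks.

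Mitochondrial carriers move metabolites, nucleotides, cofactors and ions across the inner mitochondrial membrane, which is closed to most solutes. In muscle the ADP/ATP translocases and the phosphate carrier supply the ATP synthase and export its product. Other carriers complete the malate-aspartate shuttle, bring in acylcarnitines for fatty acid oxidation or export citrate for lipid synthesis.

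The library totals lay between 16283873 and 17192750 counts, and CPM below stands for counts per 1000000 counts of the library total. The 5 skeletal muscle markers (ACTA1, CKM, MB, DES and TTN) were detected in every library, whereas HBB, which marks blood, was at 0 or near 0, and the 4 listed blood and erythroid markers together reached at most 3.98 TMM-normalized CPM. Counts of the mitochondrial genome took between 16.4% and 19.8% of a high-NFMP library and between 12.5% and 15.1% of a low-NFMP library. The 6 adipocyte markers summed to between 195 and 546 normalized CPM in the high-NFMP group and between 182 and 257 in the low-NFMP group, and the highest sum belonged to steer 3-8. All 6 had a positive log2 fold change, and ADIPOQ (adjusted p = 0.291) and CIDEC (adjusted p = 0.214) passed an unadjusted p below 0.05 by edgeR. FABP4, LEP, LPL and PLIN1 were highest in steer 3-8, whereas steers 10-8 and 10-9 lay within or below the range of the low-NFMP steers. Of the 6 slow fibre markers only MYL3 passed (log2 fold change -0.78, adjusted p = 0.145 by edgeR), and none of the 6 fast fibre or 4 endothelial markers did. Of the 5 fibroblast and preadipocyte markers, PDGFRA was lower with groups that did not overlap (log2 fold change -0.51, adjusted p = 0.408 by edgeR, past an unadjusted p below 0.05). The other 4 had positive log2 fold changes and did not pass, and the list summed to between 704 and 876 normalized CPM in the high-NFMP and between 544 and 716 in the low-NFMP group. Neither of the 2 tested leukocyte markers passed. In bulk muscle, fewer cells of a type and less RNA per cell cannot be told apart.

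As a whole, the family took 0.273% to 0.341% of a library. High-NFMP steers summed to 2974 ± 254 CPM and low-NFMP steers to 3160 ± 220 CPM (SD, n = 3 each). The ranges overlapped, with 2729 to 3235 CPM in the high-NFMP and 3014 to 3413 CPM in the low-NFMP steers. The log2 ratio of high to low was -0.088 by library totals. It was -0.021 with counts outside the mitochondrial genome as denominator and -0.022 with TMM-normalized CPM. Without SLC25A4 the sums were 1334 ± 55.3 and 1350 ± 70.0 CPM (SD, n = 3 each), a smaller difference than the spread within either group.

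A single carrier dominated the SLC25A rows. SLC25A4 encodes ANT1, the ADP/ATP translocase of heart and skeletal muscle, and stood at 1725 ± 199 CPM (SD, n = 6). In the order of the steers given above, its level was 1450, 1568 and 1901 CPM in the high-NFMP and 1706, 1742 and 1982 CPM in the low-NFMP group. It held 56.1% ± 2.46 (SD, n = 6) of all SLC25 counts, with a range of 53.0% to 58.8%. Its mean level was 5.31 times that of the next SLC25A row. The libraries start at the poly(A) tail, so these levels are tags per transcript end and were not divided by transcript length.

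The phosphate carrier SLC25A3 brings phosphate to the ATP synthase and copper to cytochrome oxidase. SLC25A3 came second among the SLC25A rows at 325 ± 51.2 CPM (SD, n = 6), or 10.6% of the SLC25 counts. Its lowest level was 269 CPM in steer 3-8 and its highest was 421 CPM in steer 10-16. SLC25A34, a carrier that resembles the yeast oxaloacetate carrier and whose substrate in mammals is not settled, ranked next at 233 ± 38.6 CPM (SD, n = 6) and 7.61% of the counts. These 3 genes held ranks 1, 2 and 3 in each of the 6 steers, and together they accounted for 74.3% of the SLC25 counts.

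**Figure D1:**
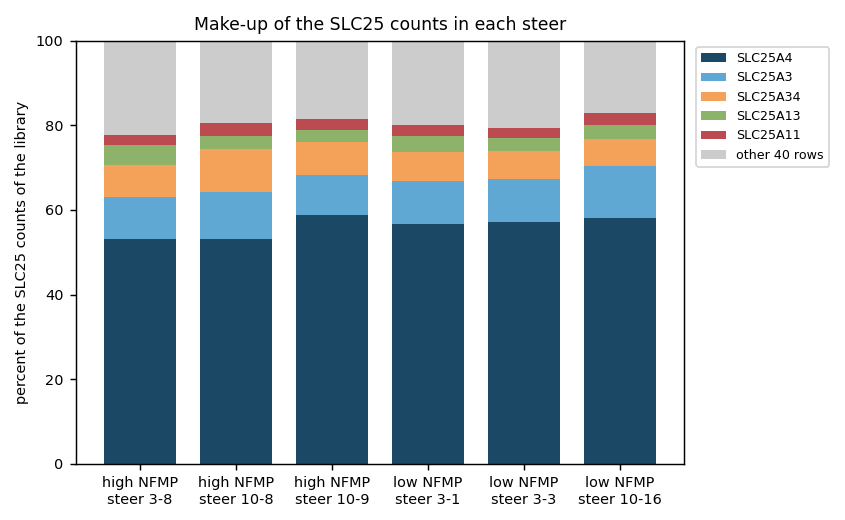
Percent of the SLC25 counts of each library taken by the 5 highest carriers and by the other 40 rows together, with 1 bar per steer. SLC25A4 fills between 53.0% and 58.8% of every bar, and no steer departs from the order SLC25A4, SLC25A3, SLC25A34.

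The carriers of the malate-aspartate shuttle followed. SLC25A13 (citrin), an aspartate/glutamate carrier, stood at 106 ± 16.4 CPM (SD, n = 6), and SLC25A11, the oxoglutarate/malate carrier, at 78.7 ± 12.3 CPM. SLC25A12 (aralar), the other aspartate/glutamate carrier and the form usually described in muscle and brain, was lower at 39.9 ± 5.07 CPM. SLC25A13 exceeded SLC25A12 in all 6 steers, by a ratio of 1.94 to 3.88 (mean 2.73 ± 0.69, SD, n = 6). Ranks 4 and 5 belonged to SLC25A13 and SLC25A11 in every steer, in changing order.

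Levels then fell in small steps. SLC25A26, the S-adenosylmethionine carrier, stood at 54.4 ± 7.94 CPM, SLC25A6 at 50.5 ± 16.7 CPM, the second row of SLC25A37 (mitoferrin 1, an iron importer) at 47.8 ± 7.39 CPM, SLC25A20 (the carnitine/acylcarnitine carrier) at 46.7 ± 5.74 CPM and SLC25A25 (an ATP-Mg/phosphate carrier) at 46.0 ± 8.43 CPM (SD, n = 6 each). With these, the 10 highest rows reached 88.4% of the SLC25 counts. Of the 45 rows, 25 had a mean of at least 10 CPM, 14 lay between 1 and 10 CPM and 6 lay below 1 CPM.

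Most neighbours in this order were not separated. The ranges over the 6 steers lay apart after SLC25A4, after SLC25A34 and after SLC25A12, whereas most other neighbours overlapped. SLC25A3 and SLC25A34 kept their order within each steer although their ranges overlapped.

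**Figure D2:**
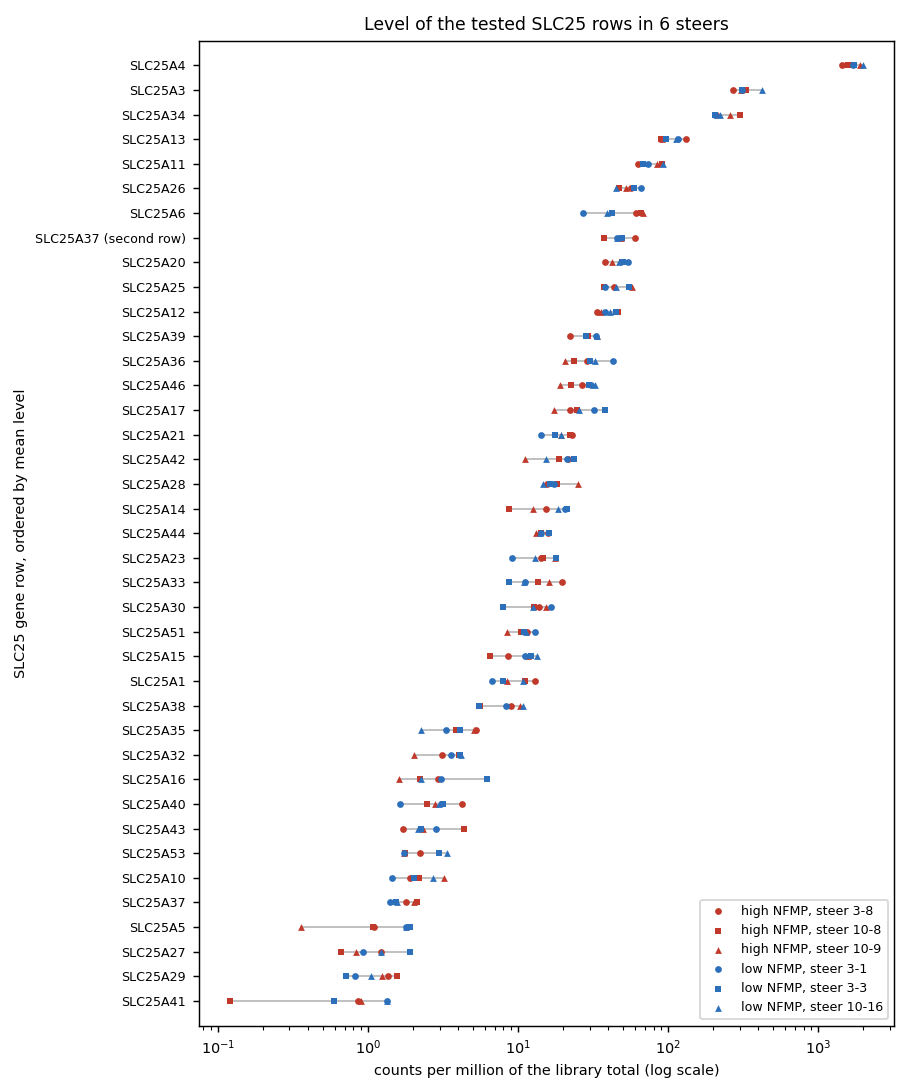
Level of the tested rows, all but 1 shown, in CPM of the library total on a log scale, ordered by mean, with 1 point per steer and a grey line over the range; the label SLC25A37 without an addition is its first row. SLC25A4 lies apart at the top (1450 to 1982 CPM), and SLC25A6 has red high-NFMP points to the right of the blue low-NFMP points.

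The carriers differed in how constant they were between steers. The coefficient of variation of the CPM over the 6 steers lay between 7.96% and 54.1% in the 40 tested rows, with a median of 23.1%. The lowest value belonged to SLC25A44, a branched-chain amino acid carrier, and the highest to SLC25A41, which had between 2 and 23 counts. Among the 10 highest rows the value was between 11.5% for SLC25A4 and 33.0% for SLC25A6, and the next highest was 18.3% for SLC25A25. SLC25A6 held rank 6 in all 3 high-NFMP steers and ranks 15, 11 and 11 in the low-NFMP steers.

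By substrate, the adenine nucleotide translocases held 57.8% of the SLC25 counts, the 6 carriers placed with di- and tricarboxylates 11.3%, the phosphate carrier 10.6%, the 9 carriers of cofactors 5.15% and the aspartate/glutamate carriers 4.81%. Of the 11.3%, 7.61% belonged to SLC25A34, which was placed in that group although its substrate in mammals is not settled. The iron carriers took 2.22%, the ATP-Mg/phosphate carriers and their relatives 2.09%, the carriers of carnitine, basic amino acids and ornithine 1.91%, and the pyrimidine nucleotide carriers 1.42%. The uncoupling-protein-like carriers (SLC25A14, SLC25A27 and SLC25A30), the outer membrane protein SLC25A46, the carriers of branched-chain amino acids and glycine, and SLC25A53, whose substrate was not assigned here, each took less, between 0.0747% and 0.996%. Export and import of adenine nucleotides and phosphate thus took the larger part of the SLC25 counts in all steers.

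The filter on low counts removed 5 rows. SLC25A22, a glutamate carrier, had between 1 and 11 counts in a library. SLC25A45 had between 0 and 5 counts, SLC25A48 between 0 and 3 and SLC25A31, the translocase of the germ line, between 0 and 4. SLC25A2, an ornithine carrier, had 1 count in steer 10-9 and 0 in the others. At this depth, differences in these 5 were not detectable.

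The high- and low-NFMP groups were then compared in each row with edgeR's quasi-likelihood test on TMM-normalized counts, with the spread estimated across all 15039 tested rows. With 3 steers per group, 0.1 is the smallest p that exact permutation allows, so single rows rest on that shared estimate. At an unadjusted p below 0.05, 2 members were higher in the high-NFMP group (5% of the 40, against 5.73% of all tested rows) and 3 were lower (7.5%, against 5.74% of all tested rows). Scaled by library totals without TMM factors, 2 were higher and 5 were lower, as SLC25A5 and SLC25A46 joined the lower ones. That scaling called 4% of all tested rows higher and 7% lower, and it moved the median log2 fold change of all rows from 0.02 to -0.05. A fold change above 2 in addition, the threshold of the methods, was reached by 0 members (3.9% of all tested rows). At a Benjamini-Hochberg adjusted p below 0.05 over all tested rows, edgeR called 0 members and 0.685% of all tested rows, limma after quantile normalization called 0 members (0.465% of all tested rows) and DESeq2 called 1, SLC25A6 (1.91% of all tested rows).

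The log2 fold change was positive in 20 and negative in 20 of the 40 rows, with a median of 0.01 against 0.02 over all tested rows, and 31 lay within 0.5 of 0. This count moved with single steers, from 18 positive and 22 negative without steer 3-3 to 25 positive and 15 negative without steer 10-16. The groups did not overlap in 8 members. All high-NFMP steers lay above all low-NFMP steers in 5, namely SLC25A6, SLC25A33, SLC25A35, the first row of SLC25A37 and SLC25A29 (7.97% of all tested rows), and below them in 3, namely SLC25A14, SLC25A46 and SLC25A5 (9.16% of all tested rows). SLC25A29, SLC25A35 and SLC25A46 are named for this count after their values were seen.

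**Figure D3:**
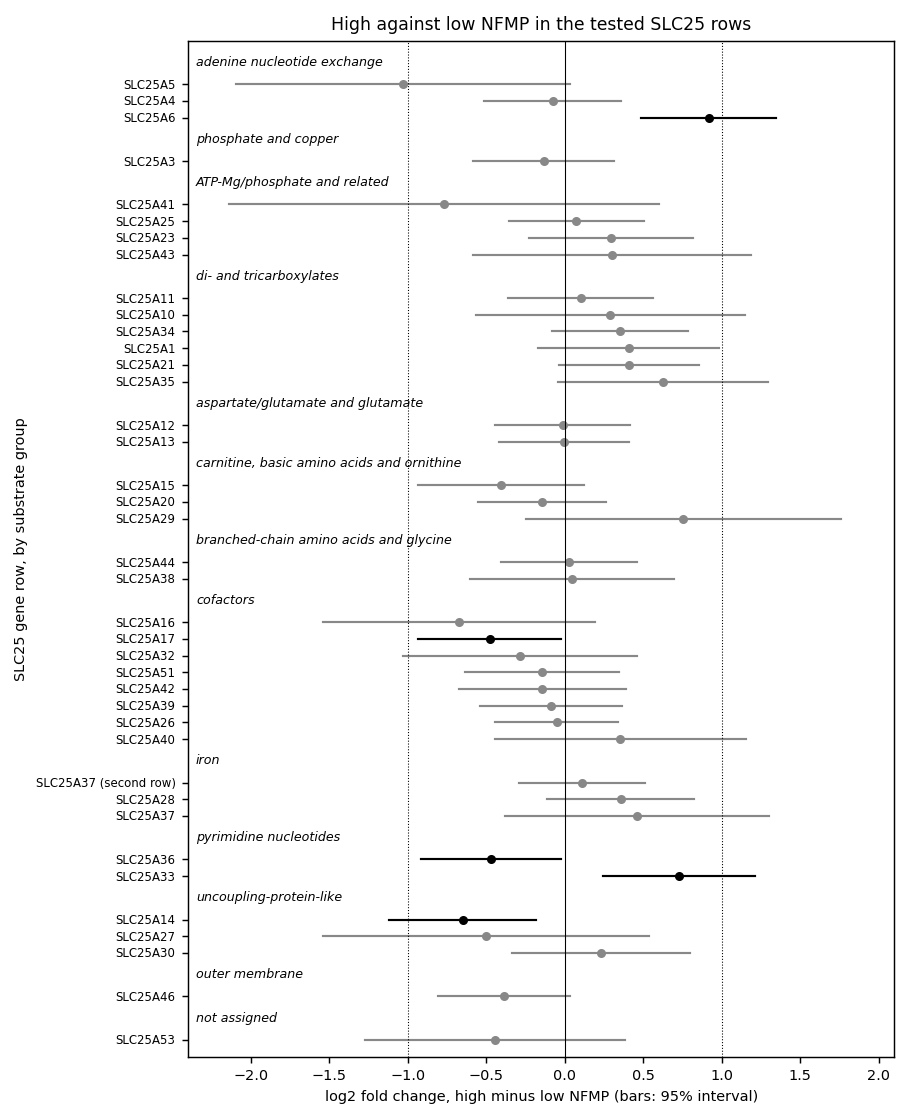
Log2 fold change of high against low NFMP for the tested rows, all but 1 shown, by substrate group, with the 95% interval from edgeR; black marks an unadjusted p below 0.05, and dotted lines mark a fold change of 2. The black points are SLC25A6 and SLC25A33 to the right and SLC25A14, SLC25A17 and SLC25A36 to the left, and of the rows shown only SLC25A5 lies past a dotted line.

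SLC25A6, which encodes ANT3, an ADP/ATP translocase found in most tissues, had the smallest p of the family. Its TMM-normalized CPM was 60.0, 72.1 and 68.0 in steers 3-8, 10-8 and 10-9 and 26.7, 38.9 and 40.4 in steers 3-1, 3-3 and 10-16. The lowest high-NFMP steer was thus well above the highest low-NFMP steer. The group means were 66.7 ± 6.18 and 35.3 ± 7.55 (SD, n = 3 each), a fold change of 1.89 (95% interval 1.40 to 2.54). The log2 fold change was 0.92 with a standard error (SE) of 0.20 (adjusted p = 0.0541 by edgeR).

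The difference in SLC25A6 did not rest on a single steer. With each steer left out in turn, its log2 fold change stayed between 0.75 and 1.06 its unadjusted p stayed below 0.05 and its adjusted p was 0.0787 to 0.219 by edgeR. It was also present within the first label number, since steer 3-8 (60.0) exceeded steers 3-1 and 3-3, and steers 10-8 and 10-9 exceeded steer 10-16 (40.4). The adjusted p ranged from 0.00508 with DESeq2 and 0.0121 without a filter to 0.396 with age as a term over the 8 other ways of fitting all 6 steers. The share of mitochondrial-genome counts was also higher in all high-NFMP steers. The summed adipocyte markers lay above the low-NFMP range (182 to 257 normalized CPM) in steer 3-8 alone (546), with 238 and 195 in steers 10-8 and 10-9. The part of either in the difference in SLC25A6 was not tested. Without steer 3-8, which had the highest adipocyte sum, the log2 fold change of SLC25A6 was 0.99.

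The other translocases were not higher in the high-NFMP group. SLC25A4 had a log2 fold change of -0.08 (95% interval -0.52 to 0.36, adjusted p = 0.907 by edgeR), with overlapping groups. SLC25A5, which encodes ANT2, the form of dividing cells, had few counts, with 18, 18 and 6 counts in the high-NFMP and 31, 32 and 31 counts in the low-NFMP steers. The groups did not overlap, and the log2 fold change was -1.03 (SE 0.50, adjusted p = 0.453 by edgeR). It did not pass an unadjusted p below 0.05, but it did without the filter, with library totals alone and after quantile normalization with limma, at adjusted p of 0.491, 0.435 and 0.335. Without steer 10-9, the steer with 6 counts, the log2 fold change of SLC25A5 was -0.64 (adjusted p = 0.699 by edgeR).

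Among the counts of the 4 translocases, the share of SLC25A6 was 4.04%, 4.03% and 3.44% in the high-NFMP steers and 1.57%, 2.35% and 1.94% in the low-NFMP steers. These shares do not depend on the normalization between libraries. SLC25A4 outnumbered SLC25A6 by 25.2 ± 2.47 in the high-NFMP group and by 51.6 ± 10.6 in the low-NFMP group (ratio of counts, SD, n = 3 each). SLC25A4 still held at least 95.9% of the translocase counts in each steer. The 3 genes are close paralogs and counts may include reads with several alignments, so reads shared among them cannot be told apart here.

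**Figure D4:**
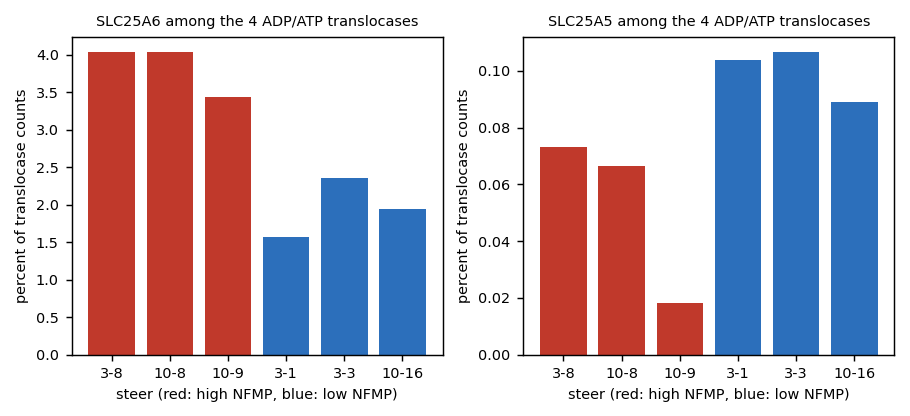
Share of the counts of the 4 ADP/ATP translocases (SLC25A4, SLC25A5, SLC25A6 and SLC25A31) held by SLC25A6 (left) and by SLC25A5 (right), with 1 bar per steer and axes from 0. SLC25A6 lies between 3.44% and 4.04% in the high-NFMP and between 1.57% and 2.35% in the low-NFMP steers, whereas SLC25A5 is at most 0.107% in every steer and is lower in the high-NFMP steers.

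The pair of pyrimidine nucleotide carriers, which supply nucleotides for the synthesis of mitochondrial RNA and DNA, went in opposite directions. SLC25A33 had 19.2, 14.8 and 16.1 normalized CPM in the high-NFMP steers and 10.8, 8.10 and 11.4 in the low-NFMP steers. Its groups did not overlap, and its log2 fold change was 0.73 (SE 0.23, adjusted p = 0.213 by edgeR). SLC25A36 had 28.4, 25.7 and 20.7 normalized CPM in the high-NFMP steers and 41.9, 27.9 and 33.7 in the low-NFMP steers. Here steer 3-8 lay above steer 3-3, so the groups overlapped, and the log2 fold change was -0.47 (SE 0.21, adjusted p = 0.412 by edgeR).

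SLC25A33 kept an unadjusted p below 0.05 in all 6 fits that left out a steer, with log2 fold changes of 0.59 to 0.85. SLC25A36 lost it without steer 10-8, 10-9, 3-1 or 10-16, with log2 fold changes of -0.46, -0.34, -0.31 and -0.46. It also lost it with the first label number (-0.42) or age (-0.29) as a term and after quantile normalization with limma (-0.43). The ratio of SLC25A36 to SLC25A33 counts was 1.48, 1.73 and 1.29 in the high-NFMP steers and 3.87, 3.45 and 2.96 in the low-NFMP steers. SLC25A36 thus remained the more abundant of the pair in all 6 steers, by a smaller margin in the high-NFMP group. The sum of both carriers overlapped between the groups, at 40.7 ± 6.74 and 45.5 ± 7.66 CPM (SD, n = 3 each).

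Among the uncoupling-protein-like carriers, SLC25A14 (also called UCP5) was lower in the high-NFMP group. Its normalized CPM was 15.1, 9.53 and 12.7 in the high-NFMP steers and 19.99, 19.6 and 19.1 in the low-NFMP steers. The low-NFMP steers lay close together and above all high-NFMP steers. The log2 fold change was -0.65 (SE 0.22, adjusted p = 0.255 by edgeR). Without steer 10-8 it was -0.46 and no longer passed an unadjusted p below 0.05. SLC25A27 and SLC25A30 had log2 fold changes of -0.50 and 0.23 and did not pass.

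SLC25A17, a carrier of the peroxisomal membrane for coenzyme A and related cofactors, was the other lower member. It had 22.0, 27.2 and 17.4 normalized CPM in the high-NFMP steers and 31.2, 35.2 and 26.3 in the low-NFMP steers. Steer 10-8 lay above steer 10-16, so the groups overlapped slightly. The log2 fold change was -0.48 (SE 0.21, adjusted p = 0.41 by edgeR). It no longer passed an unadjusted p below 0.05 without steer 3-8, 10-9, 3-1 or 3-3, with log2 fold changes of -0.48, -0.31, -0.47 and -0.38. The same was so with the first label number (-0.42) or age (-0.57) as a term and after quantile normalization with limma (-0.47).

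**Figure D5:**
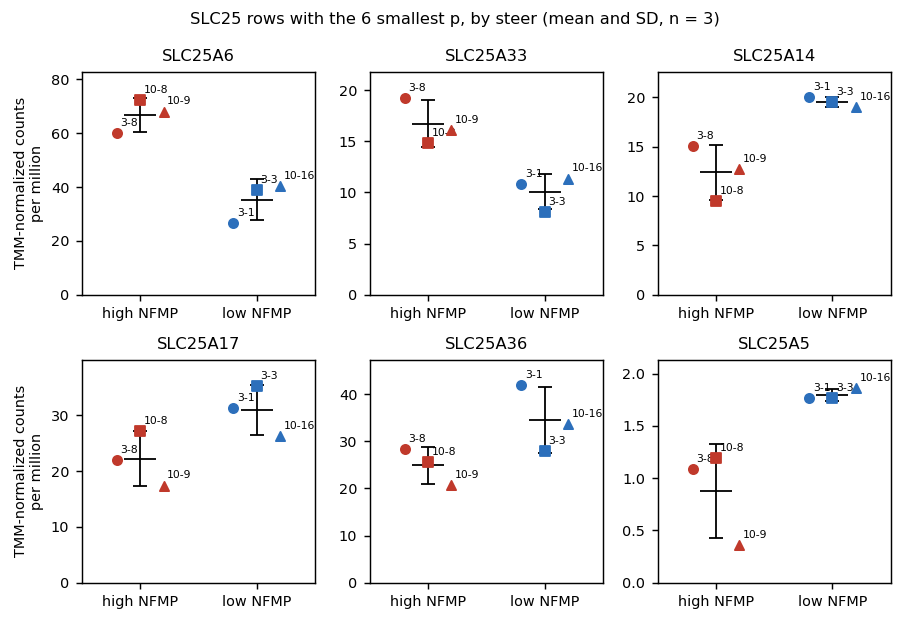
TMM-normalized CPM by steer for the 6 members with the smallest p, with the mean and SD of each group (n = 3) and axes from 0. The groups lie apart in SLC25A6, SLC25A33, SLC25A14 and SLC25A5 and overlap in SLC25A17 and SLC25A36.

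The carriers that dominated the muscle did not pass in either direction. SLC25A3 had a log2 fold change of -0.13 (95% interval -0.58 to 0.31), with 264, 363 and 307 normalized CPM in the high-NFMP and 303, 288 and 435 in the low-NFMP steers. SLC25A34 had 204, 328 and 258 normalized CPM in the high-NFMP and 201, 190 and 228 in the low-NFMP steers, a log2 fold change of 0.35 (95% interval -0.08 to 0.79, adjusted p = 0.544 by edgeR). Only steer 3-8 of the high-NFMP group lay within the range of the low-NFMP steers, and without it the log2 fold change of SLC25A34 was 0.50, past an unadjusted p below 0.05 (adjusted p = 0.246 by edgeR). It was 0.20 without steer 10-8 and 0.21 with the first label number as a term, and neither passed.

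The 6 carriers placed with di- and tricarboxylates, SLC25A34 among them, all had a positive log2 fold change. The median was 0.38 and the range 0.10 to 0.62, and 0 of the 6 had an unadjusted p below 0.05 by edgeR. The positive signs held under each scaling of the libraries, while SLC25A11 turned negative with the first label number as a term and without steer 10-8 or 3-3. SLC25A1, the citrate carrier that exports citrate for fatty acid synthesis, had 12.7, 12.1 and 8.42 normalized CPM in the high-NFMP and 6.55, 7.33 and 11.2 in the low-NFMP steers. The groups overlapped through steers 10-9 and 10-16, and the log2 fold change was 0.41 (SE 0.27, adjusted p = 0.605 by edgeR). Without steer 10-16 it was 0.70, past an unadjusted p below 0.05 (adjusted p = 0.439 by edgeR), whereas it was 0.26 without steer 3-1 and 0.19 with age as a term. SLC25A11 had a log2 fold change of 0.10 and SLC25A10, the dicarboxylate carrier, which was low at 2.25 ± 0.63 CPM (SD, n = 6), of 0.29. The value of SLC25A10 moved with single steers, from 0.076 without steer 10-9 and 0.085 without steer 3-1 to 0.46 without steer 3-8 and 0.63 without steer 10-16, and it was 0.082 with the first label number as a term. SLC25A35 in the same group had non-overlapping values between 4.23 and 5.19 in the high-NFMP and between 2.34 and 3.80 normalized CPM in the low-NFMP steers (log2 fold change 0.62, adjusted p = 0.473 by edgeR). With the first label number as a term, SLC25A35 passed an unadjusted p below 0.05 (log2 fold change 0.76, adjusted p = 0.459 by edgeR), and SLC25A21, an oxodicarboxylate carrier, did so without steer 10-9 (0.51) or 10-16 (0.59).

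The shuttle carriers were nearly level between the groups. SLC25A12 had a log2 fold change of -0.01 (95% interval -0.44 to 0.41) and SLC25A13 of -0.01 (95% interval -0.42 to 0.41). SLC25A20, which carries acylcarnitines to fatty acid oxidation, had 37.3, 54.0 and 42.2 normalized CPM in the high-NFMP and 52.6, 46.2 and 48.9 in the low-NFMP steers, a log2 fold change of -0.15 (95% interval -0.55 to 0.26). The value for SLC25A20 ranged from -0.27 without steer 10-8 to -0.036 without steer 3-8, and was -0.021 with age as a term. The 95% intervals bound the differences that the 6 steers allow.

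Of the 9 cofactor carriers, 7 had a negative log2 fold change and SLC25A17 alone passed an unadjusted p below 0.05. SLC25A26 had a log2 fold change of -0.05 (95% interval -0.45 to 0.34). The 3 rows of iron carriers (SLC25A28 and both rows of SLC25A37) had positive log2 fold changes of 0.11 to 0.46, and 0 passed. Without steer 3-8, SLC25A28 passed an unadjusted p below 0.05 (log2 fold change 0.52, adjusted p = 0.274 by edgeR) and the second row of SLC25A37 was at -0.040. The second row of SLC25A37 carried between 617 and 978 counts in a library and the first row between 24 and 35. The RefSeq table of ARS-UCD2.0 lists 2 overlapping genes, SLC25A37 and LOC523756, to which this symbol belongs, and the count files do not say which row is which. The ATP-Mg/phosphate carriers and their relatives had log2 fold changes of -0.77 to 0.30 and 0 of 4 passed, with SLC25A25 at 0.07.

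Related genes of mitochondrial transport that are not SLC25 rows were compared as a list of 21, of which 20 were in the files and 18 were tested. CPT2, the inner membrane enzyme of the carnitine shuttle, was lower in the high-NFMP group (6.33 ± 0.43 against 10.3 ± 2.69 normalized CPM, SD, n = 3 each), with a log2 fold change of -0.70. It passed an unadjusted p below 0.05 (adjusted p = 0.303 by edgeR), and the other 17 did not. UCP3, the muscle uncoupling protein, is a mitochondrial carrier outside the SLC25A rows. It was more abundant than every SLC25A row but SLC25A4. Its level was 1168 ± 56.3 normalized CPM in the high-NFMP and 1379 ± 566 in the low-NFMP group (SD, n = 3 each). The wide spread of the low-NFMP steers covered the high-NFMP values. CKMT2, the mitochondrial creatine kinase of muscle, works next to the translocase. It had 653 ± 215 normalized CPM in the high-NFMP and 930 ± 152 in the low-NFMP group (SD, n = 3 each). Its groups did not overlap (log2 fold change -0.51, adjusted p = 0.461 by edgeR). The pyruvate carrier subunits MPC1 and MPC2 had log2 fold changes of 0.39 and -0.18, and the outer membrane channels VDAC1, VDAC2 and VDAC3 lay between -0.23 and 0.20.

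Several members share genomic sequence with other genes in the RefSeq table of ARS-UCD2.0, a later assembly than the one named in the methods. SLC25A51 overlaps DCAF10 over 6572 bases, and SLC25A41 overlaps the noncoding gene LOC112447359, whose counts (8, 1, 13, 21, 4 and 18 over the steers) were lowest and highest in the same steers as those of SLC25A41 (14, 2, 15, 23, 10 and 23). The sources used here do not state a strand setting for the counting, so reads of such pairs cannot be told apart. SLC25A6 overlaps LOC132343940, a noncoding gene not analysed here, over 138 bases, and SLC25A14 overlaps the pseudogene LOC100336414 over 1315 bases. SLC25A17 overlaps LOC101905167, a protein-coding gene not analysed here, over 464 bases and the pseudogene LOC112446916 over 100 bases. Among the 10 highest rows, SLC25A20 overlaps LOC132343541, a protein-coding gene not analysed here, over 9071 bases. SLC25A13 overlaps the noncoding gene LOC101909690 over 7772 bases, and SLC25A25 overlaps NAIF1 over 3108 bases. No overlap with another listed gene was found for SLC25A4, SLC25A33 and SLC25A36.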

How the data were processed

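The authors deposited raw read counts per gene symbol for each of the 6 libraries, made with a 3′ mRNA kit from total RNA of LT muscle. The counts are whole numbers without normalization. Their methods name Tophat2 with HTSeq in one place and Bowtie2 with unique and multiple alignments in another, and the submitters' processing notes name Bowtie2 and bedtools. These accounts differ, and the sources used here do not say which of the named tools made the deposited counts. They also give no strand setting. Multiple alignments would let paralogs share reads.

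Groups came from the sample labels, with 1 library per steer and 3 steers per group. Levels are CPM of the library total (mean, SD and range over steers). For the comparison, edgeR 4.0.16 in R 4.3.3 was run on the whole table. Its default filter (minimum count 10, minimum total 15) kept 15039 of 23015 rows, TMM factors lay between 0.915 and 1.083, and the quasi-likelihood test was fitted robustly. The biological coefficient of variation was 25.1%. Standard errors were derived from the log2 fold change and the F statistic. Normalized CPM uses TMM factors. Benjamini-Hochberg adjustment ran over all tested rows. The procedure was tested on simulated data.

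The carriers named are the 10 rows with the highest mean, those with an unadjusted p below 0.05, the 4 translocases, SLC25A1, SLC25A10, SLC25A11, SLC25A12, SLC25A13 and SLC25A20, and the rows the filter removed. Other carriers are named by group or extreme value, after their values were seen. Members, substrate groups and marker lists were chosen with earlier results of these data known. All 44 symbols matched the RefSeq table of ARS-UCD2.0, which lists 46 SLC25A symbols. SLC25A24 and SLC25A47 were not analysed here. The values of 1 tested carrier are not reported here, although it is part of the sums and counts. Coordinates are not given, since the methods name another assembly. The comparison was repeated in 8 other ways over all 6 steers: with DESeq2 1.42.0, with limma 3.58.1 after quantile normalization of log2(count + 1) (robust, with a mean-variance trend), with RLE size factors or library totals in place of TMM, without a filter or with one of 10 counts in each library, and with age or the first label number as a term. Each steer was also left out. Tags carry no molecular identifier and so are not independent molecules, and a row of 10 counts carries a large counting error.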

Additional observations from a re-analysis of the deposited data

How the results depend on the processing

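The 2 higher members, SLC25A6 and SLC25A33, kept their direction and an unadjusted p below 0.05 under all 8 alternatives and with each steer left out, and SLC25A14 under all but the fit without steer 10-8. SLC25A17 and SLC25A36 did not pass after quantile normalization with limma or with the first label number or age as a term, with log2 fold changes of -0.47, -0.42 and -0.57 for SLC25A17 and -0.43, -0.42 and -0.29 for SLC25A36. The number of members past p and a fold change of 2 was 1 in place of 0 without a filter, with library totals alone and after quantile normalization with limma (SLC25A5, lower in each) and with age as a term (1, SLC25A16, lower, named after its values were seen). With a steer left out it ranged from 0 to 1, as SLC25A5 passed without steer 10-8 and SLC25A6 without steer 10-16. The number at an adjusted p below 0.05 was 1 without a filter and 1 with DESeq2 (SLC25A6 in both) and 0 with any steer left out. With a steer left out, the number at an unadjusted p below 0.05 ranged from 3 without steer 3-1 to 7 without steer 3-8, and the median log2 fold change of the members, 0.010 in the reported fit, ranged with a steer left out from -0.045 without steer 3-3 to 0.098 without steer 10-16. With library totals alone it was -0.053, where the median of all rows was -0.049, and the median of all rows without steers 3-3 and 10-16 was 0.028 and 0.057. SLC25A35 gained an unadjusted p below 0.05 with the first label number as a term and SLC25A30 with age as a term, SLC25A28 and SLC25A46 without steer 3-8 and SLC25A15 without steer 10-9.

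The sign of small differences depended on the fit, and none of these passed. The log2 fold change of SLC25A13 was 0.0044 after quantile normalization, 0.022 with the first label number and 0.0099 with age as a term. With the first label number SLC25A11 was at -0.079 and SLC25A26 at 0.033, and SLC25A3 moved to -0.27. With age SLC25A4 was at 0.0078, the second row of SLC25A37 at 0.012, SLC25A26 at 0.054 and SLC25A25 at -0.023. With each steer left out, the range was -0.16 to 0.072 for SLC25A4, -0.25 to 0.11 for SLC25A3, -0.17 to 0.11 for SLC25A13, -0.027 to 0.33 for SLC25A11, -0.13 to 0.077 for SLC25A26, -0.040 to 0.26 for the second row of SLC25A37, -0.20 to 0.10 for SLC25A12 and -0.079 to 0.20 for SLC25A25. The cause was not tested. The share of SLC25A4 ranged from 55.6% to 56.7% with a steer left out. Summed, both rows of SLC25A37 stood at rank 8, which its second row held alone, while its first row was at rank 36. Levels per kilobase of transcript were not run.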
